A study of Mus musculus with 92 samples.

Results

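The comparison set 5 cultures of fetal intestinal spheroids against 4 cultures of small intestinal organoids of the mouse, 9 of the 92 libraries of the series. The libraries were taken by their labels, and the comparison was chosen with earlier results of these data known. All 9 cultures carried the genotype Eif4g2(flox/+), Rosa26(CreER), in which a tamoxifen-activated Cre made in every cell type can delete the floxed copy of Eif4g2 and leave the other copy intact. All 9 were kept in ENR medium (EGF, Noggin and R-spondin), received 0.5 µM 4-hydroxytamoxifen (4-OHT) for 24 hours and were collected on day 6, so that genotype, medium and agent matched and the culture type differed. The controls for the agent were 5 libraries of the same spheroid lines given DMSO. Another 4 organoid libraries had CreER only and also received 4-OHT, so they are a reference for the floxed copy and not for the agent. None of the 34 libraries counted together was of organoids given DMSO, so the effect of 4-OHT on organoids has no control here. The same stage contrast was also made in Eif4g2(flox/flox), Rosa26(CreER) cultures with 4-OHT (6 spheroid and 4 organoid libraries). Poly(A) RNA was sequenced with strand-marked libraries.

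The labels call the spheroids fetal and give no age for the animals behind the organoids, so the adult stage of the organoids is not stated there. Each organoid library was a line of its own. Of the 5 spheroid lines, replicates 2, 3 and 4 shared the name prefix S9612 (lines S9612-J, S9612-G and S9612-A), whose meaning is not given, while replicate 1 was line S9488-I and replicate 5 was line S9020-C. The segment of the intestine, the embryonic day and the number of passages are not given in the sources used here. Nothing says which lines came from separate animals, so p-values measure the spread between these lines.

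As background, small intestinal organoids grow as budded structures with crypt-like domains, which hold Lgr5+ stem cells and Paneth cells, and with a lumen lined by enterocytes, goblet cells and enteroendocrine cells. Progenitors taken from the fetal intestine before crypts form grow instead as hollow, unbudded spheres in the same medium. Such spheroids are known for high Ly6a (Sca-1), Gja1 (connexin 43) and Spp1 (osteopontin), for low Lgr5, for active YAP and for a program that adult epithelium takes up again after injury. YAP and TAZ are co-activators that enter the nucleus when the Hippo kinases are inactive and act there through TEAD factors, while HNF4 and CDX factors drive the genes of the mature intestinal epithelium.

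The libraries held 17887727 to 25831825 counts in spheroids and 15368855 to 24736323 in organoids. Mitochondrially encoded genes took 7.07% ± 2.44 (SD, n = 5) of the spheroid counts and 2.73% ± 0.296 (SD, n = 4) of the organoid counts, and the 10 most abundant genes of each library took 10.1% ± 2.18 and 5.53% ± 0.234. Both shares were higher in every spheroid library than in every organoid library (exact two-sided permutation p = 0.0159 each, the smallest that 5 against 4 allows, and 0.0159 after Benjamini-Hochberg adjustment over the 2 shares). The part of these shares in the results was not tested beyond the fit without mitochondrial genes, which called 6957 genes. The library numbers of the groups did not overlap (1567 to 1570 in organoids, 1735 to 1775 in spheroids), so any batch that these numbers mark and the culture type cannot be told apart.

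Spheroid replicates 4 and 5 stood apart from the other spheroid libraries. The chi-square distance per degree of freedom between their counts and those of replicates 1 to 3 was 142.2 to 216.1, against 19.18 to 48.77 among replicates 1 to 3 and 102.3 between replicates 4 and 5. The SD of log2(CPM + 0.5) across libraries was larger in spheroids than in organoids for 89.2% of tested genes, with medians of 0.33 and 0.13 in spheroids and organoids. For this reason the results below are also given without replicates 4 and 5, a setting added after the data were seen. The 2 libraries were set aside on these same counts, and they held far more enterocyte and Paneth RNA than replicates 1 to 3. Summed enterocyte levels were 9811 and 10601 CPM in them against 132 to 611 CPM. For genes of such lists the counts and p-values of that setting describe replicates 1 to 3 and are no separate support.

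Eif4g2, the floxed gene, encodes an eIF4G relative that takes part in translation initiation without the cap-binding protein. Its level, in CPM (reads scaled to library size, with TMM factors), was 738, 750, 762 and 804 in the organoids and 345, 467, 532, 687 and 603 in the spheroids, in the order of the replicates. No spheroid library reached the lowest organoid library, and the spheroid mean was 1.45-fold lower (log2 fold change -0.56 ± 0.17 SE, adjusted p = 0.0217). The call was lost without organoid replicate 3 (adjusted p = 0.0504), without organoid replicate 4 (0.0545) and without spheroid replicate 2 (0.0512). The same spheroid lines with DMSO stood at 686, 740, 798, 1228 and 1166 CPM, and CreER-only organoids with 4-OHT at 1196 to 1279 CPM. Eif4g2 lies at chr7:111067750-111083030 on the minus strand (GRCm38).

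Of 14522 genes tested with edgeR's quasi-likelihood test, 6949 (47.9%) passed an adjusted p of 0.05, here termed called. In spheroids 3645 (25.1%) were higher and 3304 (22.8%) lower, and the median log2 fold change of all tested genes was -0.01. A change above 1 on the log2 scale was called for 1880 genes higher and 1401 lower, and a change above 3 for 583 and 183. The groups did not overlap for 3279 higher genes (22.6%) and 3050 lower genes (21%). Without spheroid replicates 4 and 5 the calls numbered 9442, of which 6659 were among the 6949, with 1578 further genes lower and 1205 further genes higher. Of the genes tested in that setting 32.9% were higher and 32.4% lower. A list described below is read against the shares of all genes in each direction, 25.1% and 22.8% with all 9 libraries and 32.9% and 32.4% without replicates 4 and 5. With the 3 spheroid lines of prefix S9612 summed to 1 sample, which left 3 spheroid samples, 6189 genes were called.

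Of 12 tested genes of the eIF4F and eIF4G families 1 was higher (8.33%, against 25.1% of all tested genes) and 3 were lower (25%, against 22.8%). Eif4g1, the scaffold of cap-dependent initiation, was 991, 996, 980 and 1016 CPM in organoids and 415, 493, 418, 612 and 713 CPM in spheroids, which do not overlap (log2 fold change -0.94, adjusted p = 0.00126). Eif4g3 missed the threshold at -0.40 (adjusted p = 0.0512). It passed in 8 of the other settings and missed in the rest. Adjusted p was 0.0351 in the DESeq2 Wald test, 0.0153 in limma voom with weights by group and 0.0188 with CreER-only organoids as reference. It was 0.000242 (log2 fold change -0.59) without spheroid replicates 4 and 5, 0.0244 without replicate 4 and 0.0193 without replicate 5. With the replicate block, which in effect leaves out spheroid replicate 5, it was 0.0152. The fits that leave out these spheroid libraries overlap and are no separate support.

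Genes were named by a rule that took the 12 largest differences in each direction among called genes whose groups did not overlap. Their average log2 CPM had to reach 3, and symbols of predicted genes, RIKEN clones and pseudogenes were left out. Larger differences were found outside the rule, those of Spp1 and Igf2bp1 among them. Mal, a proteolipid of apical membrane transport, stood at 1.23, 0.563, 0.84 and 0.659 CPM in organoids and 418, 328, 332.1, 127 and 57.6 CPM in spheroids (log2 fold change 8.25 ± 0.76 SE, adjusted p = 9.18e-05). Its lowest spheroid library, replicate 5, was still far above the highest organoid library. Fibronectin, Fn1, rose by 7.48 from 1.36, 0.507, 0.473 and 0.31 CPM to 70.4, 236, 121, 107 and 42.8 CPM, and the uroplakin Upk1b by 6.54 from 2.16, 1.52, 1.73 and 1.71 CPM to 177, 189, 197, 219.7 and 59.7 CPM, again with replicate 5 lowest. The other rises were Wnt7b (7.35), the anoctamin Ano3 (7.21), the imprinted zinc-finger gene Peg3 (6.78), the secreted protein gene Wfdc2 (6.41), Depp1 (6.40), the fucosyltransferase Fut2 (6.34), Anxa8 (6.26), the caveolar ATPase Ehd2 (6.11) and the pantetheinase Vnn1 (6.10). Depp1 overlaps Rassf4 on the other strand, and how strand entered the counting is not given, so its value is uncertain.

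On the lower side, Gpd1, a glycerol-3-phosphate dehydrogenase, was 384, 316, 237 and 246 CPM in organoids and 0.356, 0.484, 0.566, 13.4 and 25.3 CPM in spheroids (log2 fold change -5.22 ± 1.23 SE, adjusted p = 0.00777). Pigr, the receptor that carries immunoglobulin A across the epithelium, was 2688, 2577, 2605 and 2633 CPM and 45.7, 24.6, 49, 207 and 551 CPM (log2 fold change -3.94, adjusted p = 0.00652). In both genes spheroid replicates 4 and 5 came closest to the organoids without reaching them. The desmosome gene Pkp1 was low in all spheroid libraries alike, at 10.3, 8.33, 10.7, 14.1 and 8.1 CPM against 86.7, 91.8, 90.7 and 99.1 CPM in organoids (log2 fold change -3.18 ± 0.16 SE, adjusted p = 1.49e-05). The other falls were the cytochrome P450 gene Cyp2c29 (-3.96), the fructose transporter Slc2a5 (-3.95), the fatty-acid-binding protein Fabp1 (-3.80), the carboxylesterase Ces1f (-3.67), the alcohol dehydrogenase Adh1 (-3.47), Igsf23 (-3.30), the creatine kinase Ckb (-3.27), the sodium channel subunit Scn2b (-3.20) and the carbonic anhydrase Car9 (-3.19). The call of Adh1 was lost without organoid replicate 1, organoid replicate 2 or spheroid replicate 3 (adjusted p 0.0504 to 0.0584), and that of Fabp1 without any of 7 of the 9 libraries, all but spheroid replicates 1 and 5 (0.0617 to 0.0776). With the S9612 lines summed the calls of Adh1, Fabp1 and Igsf23 were lost (adjusted p = 0.0604, 0.0962 and 0.0547). With no filter beyond 1 read those of Adh1, Fabp1, Igsf23, Car9 and Slc2a5 were lost (0.0832, 0.116, 0.0561, 0.0567 and 0.0551). The call of Fabp1 was also lost against CreER-only organoids (0.0581) and that of Car9 with all 34 libraries in the fit (0.0555).

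**Figure D1:**
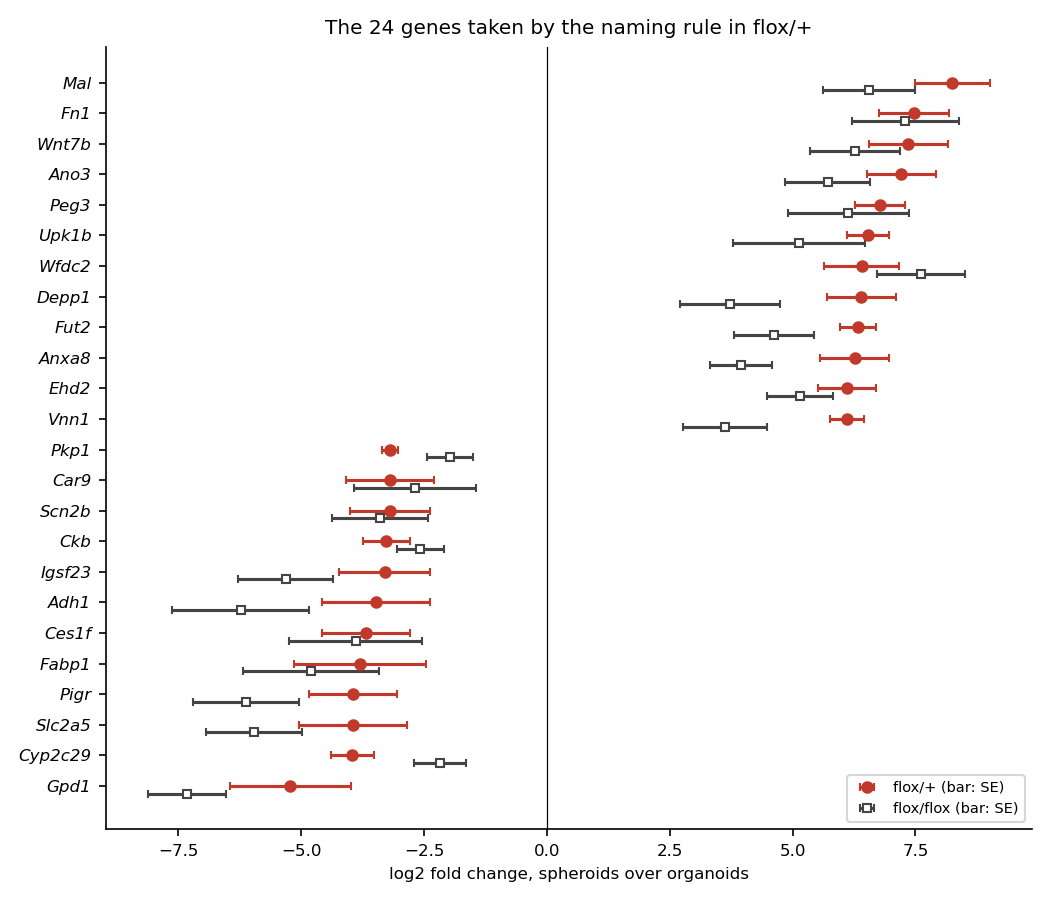
Log2 fold change of spheroids over organoids (horizontal axis) for the 24 genes of the naming rule, in flox/+ cultures (filled circles) and flox/flox cultures (open squares), with bars of 1 SE on each side. All 24 point the same way in both genotypes, and Mal is highest at 8.25 and Gpd1 lowest at -5.22 in flox/+.

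Markers of the fetal-like epithelium were higher in the spheroids. Here and below the levels are those of bulk RNA, where fewer cells of a type and less RNA per cell cannot be told apart. Of the 17 genes of that list 16 were tested and 14 were called, all of them higher (87.5%, against 25.1% of all tested genes), with a median log2 fold change of 3.62. The surface protein gene Ly6a was 14.2, 10.9, 16.5 and 10.2 CPM in organoids and 789, 483, 489.6, 249.8 and 78.9 CPM in spheroids, a 32.2-fold difference of means (log2 fold change 4.99, adjusted p = 0.000402). Replicate 5 was the lowest spheroid library and still several times the highest organoid library. Spp1 rose by 10.60 on the log2 scale. Gja1 had 2 reads in all organoid libraries together against 7902 in spheroids. Over the total counts of each group this was a ratio of 2689.7 (exact 95% interval 744 to 22213, which covers counting error only).

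Clusterin, Clu, a secreted chaperone, was 212, 159, 134 and 142 CPM in organoids and 891, 2974, 2089.9, 1635 and 1008 CPM in spheroids (log2 fold change 3.39, adjusted p = 0.000171). The organoid libraries lay close together and all 5 spheroid libraries above them. Il1rn, which blocks the interleukin-1 receptor, was 17.6, 19.6, 23.6 and 23 CPM against 255, 258, 272, 449 and 135 CPM (log2 fold change 3.68, adjusted p = 5.65e-05), here with replicate 4 highest. The members that did not pass were Mfge8 at 0.34 (adjusted p = 0.14) and Tnfrsf12a at 0.54 (adjusted p = 0.235), and both passed without spheroid replicates 4 and 5, which left 16 of 16 higher. Spheroid replicate 5 had the lowest summed level of the list among the spheroids, 2887 CPM, and replicate 2 the highest, 9588 CPM, while organoids ranged from 1045 to 1138 CPM. At the level of these markers the spheroid libraries matched their label, with replicate 5 nearest to the organoids.

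Epcam, an adhesion protein of epithelia, was 1207, 1144, 1216 and 1277 CPM in organoids and 844, 839.9, 869, 863 and 1009 CPM in spheroids (log2 fold change -0.48, adjusted p = 0.00186, and -0.43 and 0.116 with all 34 libraries in the fit). The keratin genes Krt18 and Krt19 rose by 1.40 and 1.11. Mesothelin, Msln, which is in the fetal-like list and also marks mesothelium, was 48.1, 26, 21.8 and 29.8 CPM in organoids and 1309.9, 1438, 1347, 676 and 272 CPM in spheroids. Upk3b, a second mesothelial gene, was 15.8, 16.5, 14.9 and 16.3 CPM and 106, 150.5, 150.1, 25.2 and 18.9 CPM. The defining mesothelial genes Wt1 and Lrrn4 were at or near 0 and were not tested. Collagen genes of mesenchyme were found in spheroids, where Col1a1 was 7.95, 78.2, 7.46, 0.763 and 0.818 CPM against 0.185, 0, 0.0525 and 0.116 CPM in organoids, and Col3a1 had 0 organoid reads against 1265 spheroid reads, at least 287-fold higher over the group. Replicate 2 held most of these collagen reads, and its summed mesenchymal level of 192 CPM compares with 13.7 to 22.9 CPM in the other spheroids and 8.2 to 11.3 CPM in organoids. Of the 14 mesenchymal genes 6 were tested and 3 were higher (Col1a1, Col1a2 and Col3a1, of which Col1a2 lost its call when any single organoid replicate or spheroid replicate 5 was left out, at adjusted p 0.0582 to 0.0702, and Col1a2 and Col3a1 with no filter beyond 1 read, at 0.139 and 0.0882). Vim was 1.37, 10.3, 4.89, 9.34 and 15.1 CPM in spheroids against 6.1, 8.28, 10.8 and 8.76 CPM in organoids and was not called. Summed immune markers (1.5 to 5 CPM over the 9 libraries), endothelial markers (0.2 to 1.5 CPM) and neural and glial markers (0.2 to 2.9 CPM) were near 0 in every library. The part of mesenchymal cells in the results was not tested.

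**Figure D2:**
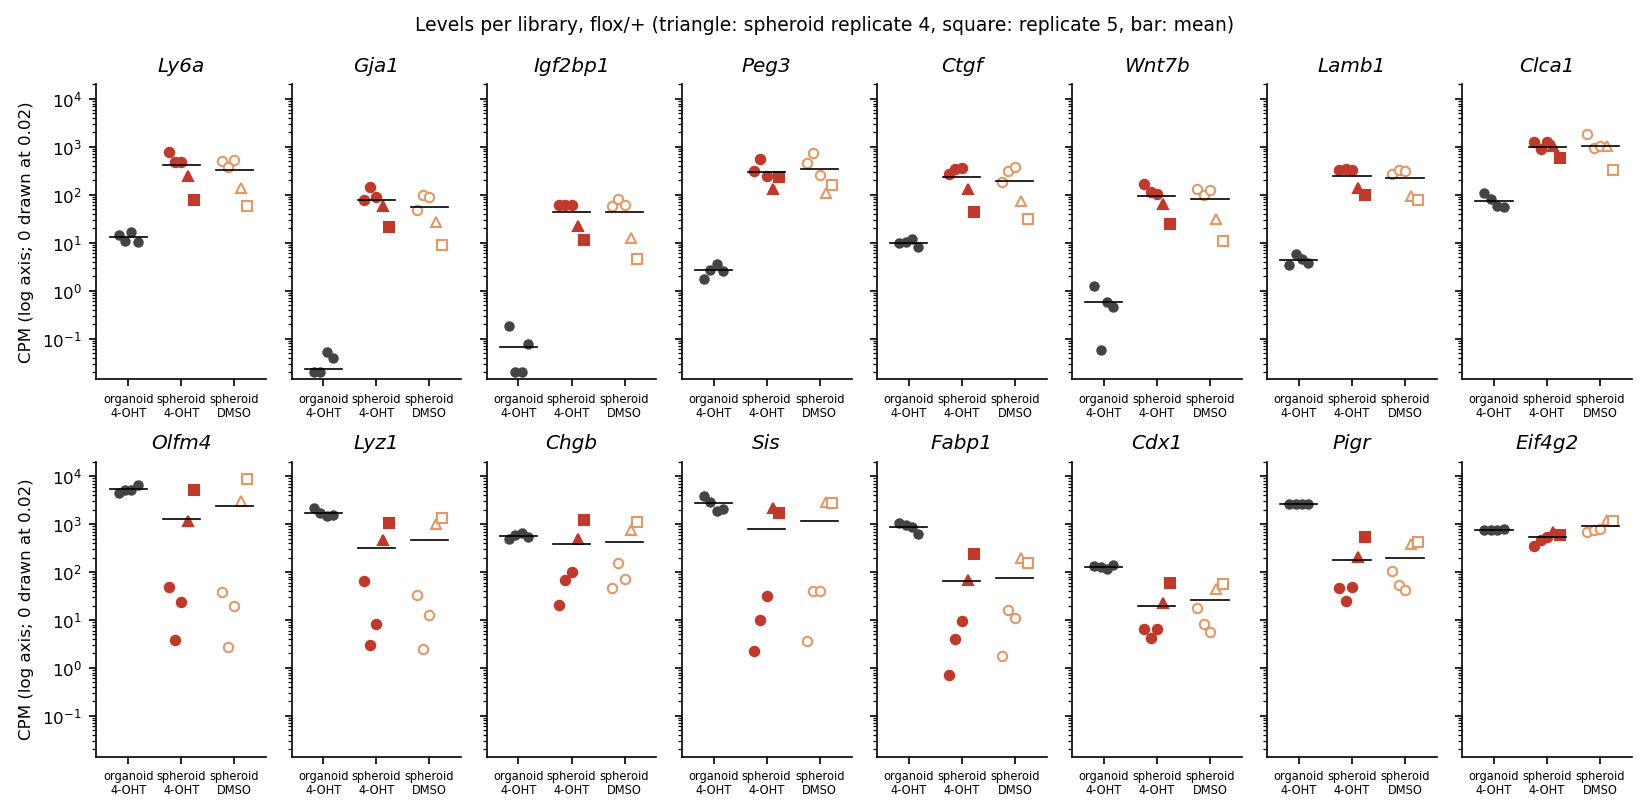
CPM on a log axis for 16 genes in each flox/+ library: 4 organoid libraries with 4-OHT (dark), 5 spheroid libraries with 4-OHT (red) and the same 5 spheroid lines with DMSO (open), where a triangle marks spheroid replicate 4, a square replicate 5 and a bar the group mean. Genes of the upper row are higher in all 5 spheroid libraries than in every organoid library; in Olfm4, Lyz1, Chgb and Sis of the lower row replicates 1 to 3 lie far below replicates 4 and 5, with and without 4-OHT.

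Oncofetal and imprinted growth genes were higher as well. Igf2bp1 and Igf2bp3 encode RNA-binding proteins of the fetal period, and Hmga2 encodes a chromatin protein of fetal progenitors. Igf2bp1 had 5 organoid reads in all and stood at 0.185, 0, 0 and 0.0775 CPM in organoids and 60.5, 60.3, 61.2, 21.8 and 11.6 CPM in spheroids (log2 fold change 9.26, adjusted p = 0.000102). Igf2bp3 was 17.7, 8.22, 7.56 and 4.11 CPM and 175, 166, 156, 179.5 and 157 CPM, nearly the same level in all 5 spheroid lines (log2 fold change 4.13, adjusted p = 7.92e-05), with the reservation that Malsu1 overlaps it on the other strand. Hmga2 was 35.7, 45.2, 46.4 and 46.8 CPM and 145, 284, 227, 128 and 155 CPM (log2 fold change 2.09). Of the 8 genes of this list 6 were tested and 5 were higher (83.3%, against 25.1% of all tested genes). Afp, an albumin relative of fetal liver and yolk sac, was not called (1.31, 1.99, 2.93, 26.1 and 62.3 CPM in spheroids, 19.1, 12.2, 29.9 and 21.8 CPM in organoids).

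Among imprinted growth genes 9 of 15 were tested and 6 were higher (66.7%, against 25.1% of all tested genes). Peg3 was 1.79, 2.65, 3.57 and 2.6 CPM in organoids and 312, 565, 245, 131 and 232 CPM in spheroids, a 112-fold difference of means with no overlap. The noncoding RNA H19 was 0.493, 0.338, 0.84 and 0 CPM and 23.9, 103, 9.26, 8.71 and 35.5 CPM (log2 fold change 6.45, adjusted p = 0.00195). Both genes were highest in replicate 2. That library also had the highest summed mesenchymal level, 192 CPM against 13.7 to 22.9 CPM in the other spheroids, whose part in these 2 genes was not tested. Without replicate 2 Peg3 rose by 6.41 (adjusted p = 5.65e-05) and H19 by 5.54 (adjusted p = 0.00171), and 5 genes of the list were higher. The transcription factor gene Plagl1 rose by 2.83 and the receptor gene Igf2r, whose product removes IGF2, by 1.52 on the log2 scale, and Igf2 itself had 55 spheroid reads and 0 organoid reads and was not tested. The count of higher genes in both lists was the same without replicates 4 and 5 (5 of 6 and 6 of 9), where Afp then passed as lower at -3.27.

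Targets and regulators of the Hippo pathway were mostly higher. Of 22 genes tested 15 were higher and 1 lower (68.2% against 25.1% of all tested genes higher). Ctgf, a secreted matricellular protein and a YAP target, was 9.68, 10.6, 11.9 and 8.22 CPM in organoids and 275, 346, 367, 134 and 42.9 CPM in spheroids (log2 fold change 4.51, adjusted p = 0.000542). The receptor tyrosine kinase Axl was 0.247, 0.113, 0.158 and 0 CPM and 7.6, 14.3, 8.64, 4.58 and 3.12 CPM (log2 fold change 5.90, adjusted p = 0.000284), and the LIM protein gene Ajuba was 28.3, 26.5, 27.9 and 23.3 CPM and 188, 162, 144, 135 and 67.3 CPM (log2 fold change 2.37, adjusted p = 0.000158). In each of these genes replicate 5 was the lowest spheroid library and lay above all organoid libraries.

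Ankrd1, a nuclear repeat protein gene and YAP target, had 6 organoid reads in all and was 4.99, 8.96, 10.9, 8.85 and 2.92 CPM in spheroids (log2 fold change 6.43, adjusted p = 0.00013). Cyr61 was 25.3, 23.8, 30.1 and 25.5 CPM in organoids and 74.9, 78.2, 68.8, 35.8 and 24 CPM in spheroids, so that replicate 5 fell among the organoids (log2 fold change 1.09, adjusted p = 0.0238). Its call was lost without organoid replicate 1, 2 or 4 or spheroid replicate 2 or 3 (adjusted p 0.0508 to 0.0639). Among the regulators, TAZ (Wwtr1) rose by 3.15 and Tead4 by 3.38, Yap1 was not called at 0.17 (adjusted p = 0.157; 0.28 and 0.0168 without replicates 4 and 5), and Nf2, an upstream activator of the kinases, fell by 1.00 from 144, 131, 139.9 and 146 CPM to 55.9, 61.6, 66.7, 80.3 and 93.1 CPM.

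The promoters of 4 of these genes are shown because they rose together and hold the hexamer GGAATG or its reverse complement CATTCC, the core of the TEAD motif. Each is the 250 bases before the gene's start in RefSeq on GRCm38.p6, written 5′ to 3′ on the gene's strand, with the hexamer in capitals. They lie at chr3:145649986-145650235, chr19:36119845-36120094, chr7:25788734-25788983 and chr14:54577662-54577911, all on the minus strand.
Cyr61: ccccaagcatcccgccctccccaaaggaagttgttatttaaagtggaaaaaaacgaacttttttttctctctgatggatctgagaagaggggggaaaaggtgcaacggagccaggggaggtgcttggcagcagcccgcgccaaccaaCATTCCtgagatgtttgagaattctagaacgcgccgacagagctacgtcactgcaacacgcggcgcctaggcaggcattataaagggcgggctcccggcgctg
Ankrd1: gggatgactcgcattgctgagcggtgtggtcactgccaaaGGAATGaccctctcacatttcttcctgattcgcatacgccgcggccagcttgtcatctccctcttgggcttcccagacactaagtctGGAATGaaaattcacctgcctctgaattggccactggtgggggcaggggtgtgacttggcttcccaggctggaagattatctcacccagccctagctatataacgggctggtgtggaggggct
Axl: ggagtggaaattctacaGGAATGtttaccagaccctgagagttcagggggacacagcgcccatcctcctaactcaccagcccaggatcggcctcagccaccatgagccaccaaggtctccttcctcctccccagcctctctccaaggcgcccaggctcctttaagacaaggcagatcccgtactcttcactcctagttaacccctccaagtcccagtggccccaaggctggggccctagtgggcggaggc
Ajuba: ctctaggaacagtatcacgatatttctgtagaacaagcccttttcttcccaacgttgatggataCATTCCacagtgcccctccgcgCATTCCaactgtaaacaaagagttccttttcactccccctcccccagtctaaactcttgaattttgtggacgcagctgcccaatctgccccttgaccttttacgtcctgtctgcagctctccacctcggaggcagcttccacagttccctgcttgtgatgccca
The hexamer stood 103 bases before the start in Cyr61, 210 and 123 in Ankrd1, 233 in Axl, and 186 and 164 in Ajuba. On either strand it was found in 13.1% of the promoters of 10158 tested genes with a RefSeq entry, and in 11 of the 18 Hippo list members with an entry (61.1%). The 11 include Yap1, which was not called. By call it was in 16.1% of genes higher, 11.8% of genes lower and 12.1% of genes not called. A gene counted where any of its listed start sites had the hexamer, and 10.8% of genes had it at the first listed start. None of the 4 motifs searched contains another. The matches are a description of these windows and no measure of binding.

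**Figure D3:**
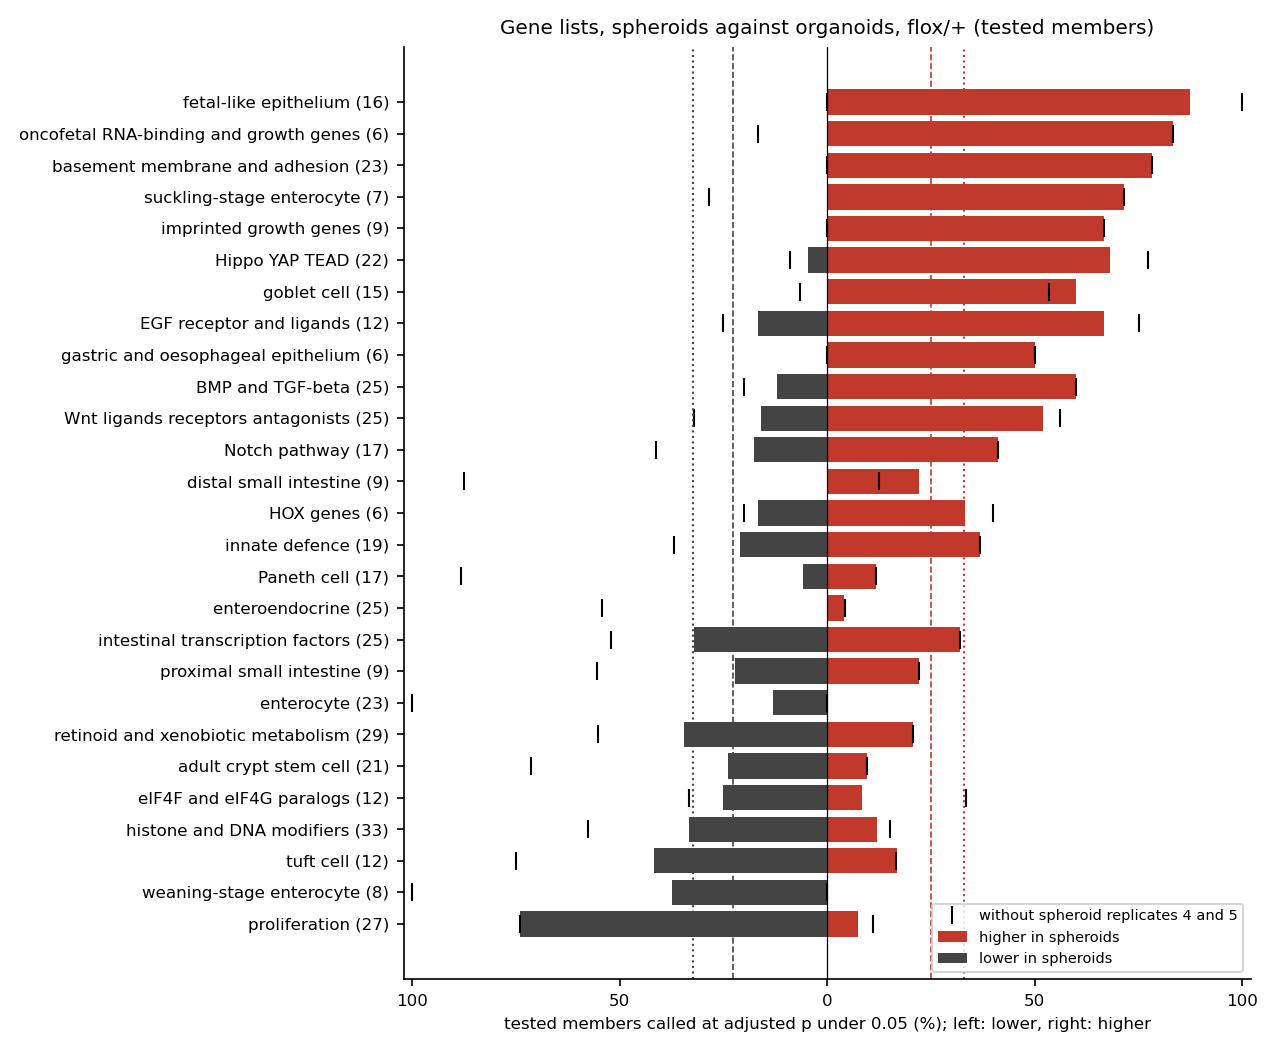
Percent of the tested members of each of 27 lists called higher (red, to the right) or lower (dark, to the left) in spheroids, with the number tested in brackets. Dashed lines give the 25.1% and 22.8% of all tested genes, black ticks the percent without spheroid replicates 4 and 5, and dotted lines the 32.9% and 32.4% of all genes in that setting; the distal small intestine, enterocyte, Paneth cell and weaning lists move furthest to the left between these settings.

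Basement membrane and adhesion genes were higher in 18 of 23 tested (78.3%, against 25.1% of all tested genes), and in 18 again without replicates 4 and 5. Laminin chain genes were among them. Lamb1 was 3.45, 5.8, 4.52 and 3.8 CPM in organoids and 329, 339.6, 327, 137 and 100.3 CPM in spheroids (log2 fold change 5.79 ± 0.49 SE, adjusted p = 5.41e-05), and Lama5 49.6, 40.8, 38.9 and 29.7 CPM and 603, 486, 420.2, 315 and 308 CPM (log2 fold change 3.40, adjusted p = 3.47e-05). Lama3, a laminin chain that anchors epithelia to the basement membrane, rose by 4.51. The type IV collagen genes Col4a1 and Col4a2 stood at 209, 199, 199, 64.1 and 40.3 CPM and 355, 338, 240.3, 93.1 and 59.5 CPM in spheroids against 10.6, 2.03, 5.09 and 3.3 CPM and 7.03, 1.41, 3.94 and 3.68 CPM in organoids, but they are head-to-head neighbours that overlap, so reads may have been exchanged between them. Replicates 4 and 5 were the lowest spheroid libraries in Lamb1, Lama3 and both collagen genes. Integrin alpha 6, Itga6, the laminin receptor subunit, was not called at 0.02 (adjusted p = 0.872).

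Wnt pathway genes went both ways, more of them higher. Of 25 tested, 13 were higher (52.0%, against 25.1% of all tested genes) and 4 lower (16.0%, against 22.8%). The ligand Wnt7b was 1.23, 0.0563, 0.578 and 0.465 CPM in organoids and 165, 115, 106, 65.7 and 24.6 CPM in spheroids (log2 fold change 7.35 ± 0.80 SE, adjusted p = 0.000175), and the ligands Wnt7a and Wnt4 rose by 6.75 and 6.04. Porcn and Wls, which acylate and carry Wnt proteins to the surface, rose by 2.31 and 1.82. The receptor gene Fzd10 had 0 organoid reads and 135 spheroid reads, at least 30.6-fold higher over the group. On the lower side, the transcription factor gene Tcf7, itself a Wnt target of crypts, was 17.1, 21.6, 23.4 and 24.5 CPM in organoids and 2.55, 3.58, 2.98, 8.8 and 15.6 CPM in spheroids (log2 fold change -1.71, adjusted p = 0.0191). Its call was lost with the S9612 lines summed (adjusted p = 0.0598) and with no filter beyond 1 read (0.0544). Of the list, 7 members were lower without spheroid replicate 5. Wnt3, the ligand made by Paneth cells, was 11.3, 11, 7.67 and 9.65 CPM in organoids but 0, 0.194, 0.103, 9.97 and 21.1 CPM in spheroids, where replicates 1 to 3 had almost none and replicates 4 and 5 matched or passed the organoids (log2 fold change -0.69, adjusted p = 0.706). It was lower by limma voom with weights by group (-3.48, adjusted p = 0.0452) and without replicates 4 and 5 (-6.44 and 2.17e-06).

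Ligands and receptors of other pathways were also higher more often than lower, in 7 and 3 of 17 Notch genes, 8 and 2 of 12 EGF receptor genes, and 15 and 3 of 25 BMP and TGF-beta genes. The shares higher were 41.2%, 66.7% and 60% (25.1% of all tested genes), and those lower 17.6%, 16.7% and 12% (22.8%). The Notch ligand Jag1 rose by 2.93 and the receptor Notch3 by 3.74, from 2.96, 2.82, 2.05 and 3.22 CPM to 60.7, 45.9, 46.6, 22.5 and 12.1 CPM, while Hes6 fell by 1.58 from 48.5, 51, 61.6 and 62.9 CPM to 21.5, 17.1, 21.5, 16.4 and 18.8 CPM. Without spheroid replicate 5, 5 Notch genes were lower. The EGF receptor ligand Ereg was 0.0616, 0.338, 1.63 and 1.2 CPM in organoids and 26.3, 38.3, 45.9, 32 and 12.7 CPM in spheroids (log2 fold change 5.19, adjusted p = 0.00043), the receptor Erbb2 rose by 1.32. Lrig1, which restrains EGF receptors and marks crypt stem cells, was counted in the stem cell list and not in these. It fell from 340.3, 375, 356 and 402 CPM to 65.9, 75.3, 93, 124 and 212 CPM (log2 fold change -1.72, adjusted p = 0.00154). The ligand gene Bmp7 fell from 30.6, 39.8, 35.3 and 37.4 CPM to 1.9, 3.87, 4.78, 7.86 and 18.7 CPM (log2 fold change -2.29, adjusted p = 0.00738), and Bmp8b rose by 3.76, with the reservation that it overlaps Ppie.

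Markers of the adult crypt depended on the spheroid line. Olfm4, a secreted glycoprotein of crypt base cells, was 4517, 5181, 5163 and 6529.8 CPM in organoids and 48.1, 3.83, 24.1, 1175 and 5077 CPM in spheroids. Replicates 1 to 3 were near 0 on that scale, replicate 4 lay between, and replicate 5 fell within the organoids, so that the mean difference was not called (log2 fold change -2.12 ± 1.59 SE, adjusted p = 0.302). It was lower by limma voom with weights by group (-5.43, adjusted p = 0.0111) and without replicates 4 and 5 (-7.69 and 0.000121). With the replicate block it was also lower (-7.01 and 0.0453). No organoid library has the number 5, so that block in effect leaves out spheroid replicate 5 and is no separate support. The same lines with DMSO held 37.7, 2.69, 19.1, 2983 and 8902 CPM. Lgr5, the R-spondin receptor of crypt stem cells, was likewise lowest in replicates 1 to 3, at 259, 312, 317 and 315 CPM in organoids and 44.3, 71.2, 65.6, 235 and 585 CPM in spheroids, with replicate 5 above every organoid library (log2 fold change -0.62, adjusted p = 0.501; -2.28 and 3.67e-06 without replicates 4 and 5). Of the 21 tested stem cell genes 5 were lower (23.8%, near the 22.8% of all genes) and 2 higher (9.52%, against 25.1%), while 12 were lower without spheroid replicate 5 and 15 without replicates 4 and 5 (71.4%, against 32.4%). The higher count was 1 without organoid replicate 1 and 4 without spheroid replicate 1.

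Paneth and enteroendocrine cell genes were lowest in spheroid replicates 1 to 3. The summed Paneth level was 267, 250, 322, 2707 and 7317 CPM in spheroids against 6459 to 7312 CPM in organoids. The summed enteroendocrine level was 56.3, 187, 252, 987 and 2254 CPM against 770 to 1120 CPM. The summed tuft cell level was below all organoids in every spheroid line, at 19.1, 26.8, 29.0, 37.0 and 67.3 CPM against 69.2 to 98.6 CPM. Lysozyme, Lyz1, a Paneth cell product, was 2168, 1686, 1459.8 and 1536 CPM in organoids and 66.1, 3, 8.38, 455 and 1043 CPM in spheroids. The defensin gene Defa21, one of a family of near-identical copies, was 122, 170.4, 103 and 134 CPM and 0, 0, 0.206, 109 and 413 CPM, and the granule protein gene Chgb of enteroendocrine cells was 490, 590.2, 639 and 536 CPM and 20.5, 69.6, 98.3, 487 and 1207 CPM. None of these 3 was called, at log2 fold changes of -2.48, -0.38 and -0.62 (adjusted p = 0.16, 0.882 and 0.628). Lyz1 and Defa21 were lower by limma voom with weights by group (-4.76 and -5.91, adjusted p = 0.00962 and 0.0486), and all 3 were lower without replicates 4 and 5 (-6.04, -10.71 and -3.13, adjusted p = 0.00148, 4.38e-07 and 0.000741). Of 17 Paneth genes 1 was lower and 2 higher, of 25 enteroendocrine genes 1 was called, and it was higher (the neurotensin gene Nts, named after its value was seen, and not called with all 34 libraries in the fit at adjusted p = 0.0735), and of 12 tuft cell genes 5 were lower and 2 higher. The shares lower were 5.88%, 0% and 41.7%, against 22.8% of all tested genes. Without spheroid replicate 5 the lower counts were 3, 4 and 8, and without replicates 4 and 5 they were 15 of 17, 13 of 24 and 9 of 12 (88.2%, 54.2% and 75.0%, against 32.4% of all genes). The Paneth count was 0 without organoid replicate 1, 2 or 4 or spheroid replicate 3 or 4. The lower count of the tuft list was 2 without organoid replicate 2, 3 or 4 and 3 without spheroid replicate 4, its higher count was 1 without organoid replicate 4, and the enteroendocrine higher count was 2 without spheroid replicate 1.

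Enterocyte genes spread widely among the spheroid lines. Sucrase-isomaltase, Sis, was 3912, 2942, 1875 and 2077 CPM in organoids and 2.2, 10.1, 31.7, 2179 and 1732 CPM in spheroids, and 3.67, 40.6, 39.7, 2885 and 2798 CPM in the same lines with DMSO. Replicate 4 was within the range of the organoids, replicate 5 just below it and replicates 1 to 3 far below it, and replicates 4 and 5 were highest with DMSO too (log2 fold change -1.81 ± 1.58 SE, adjusted p = 0.374; -7.48 and 0.000212 without replicates 4 and 5, and -4.99 and 0.0213 by limma voom with weights by group). Lactase, Lct, a brush border enzyme of the young intestine, was 60, 61, 49.6 and 47.4 CPM and 0.0594, 0.339, 0.206, 78.6 and 141 CPM, with replicates 4 and 5 above the organoids (-7.94, adjusted p = 3.6e-08, without these). The fatty-acid-binding protein gene Fabp1 was 1035, 970.2, 854 and 607 CPM and 0.712, 3.97, 9.52, 69.6 and 235 CPM and did not reach the organoid range in any line.

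Of 23 enterocyte genes 3 were called, all lower (13.0%, under the 22.8% of all tested genes). Without replicates 4 and 5, the spheroids with the highest enterocyte levels, all 23 were lower, where 32.4% of all genes were. The count of 3 was 1 without organoid replicate 1. The lower genes were Fabp1, the retinol-binding protein gene Rbp2 at 548, 424, 267 and 260 CPM and 14.2, 19.2, 20.3, 109 and 156 CPM (log2 fold change -2.59, adjusted p = 0.0202, and 0.0505 without organoid replicate 1, 0.0646 with no filter beyond 1 read and 0.0572 with all 34 libraries in the fit), and the fructose transporter gene Slc2a5 at 121, 97, 95.4 and 102 CPM and 0.119, 0.678, 1.08, 11.4 and 20.7 CPM (log2 fold change -3.95, adjusted p = 0.0162). Genes that rise at weaning were called in 3 of 8, all lower (37.5%, against 22.8% of all tested genes), and in 8 of 8, all lower, without replicates 4 and 5. Cyp2c29 of that list was low in every spheroid line, 0.772, 4.84, 3.6, 6.29 and 4.05 CPM against 64.9, 62.8, 56.7 and 56.3 CPM (log2 fold change -3.96, adjusted p = 0.000145).

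The promoters of Rbp2 and Cyp2c29 are shown because both genes were lower in every spheroid line and hold the hexamer CAAAGT or its reverse complement ACTTTG, the core of the HNF4 motif, again as the 250 bases before the RefSeq start on GRCm38.p6 with the hexamer in capitals. They lie at chr9:98490287-98490536 and chr19:39286835-39287084, both on the plus strand.
Rbp2: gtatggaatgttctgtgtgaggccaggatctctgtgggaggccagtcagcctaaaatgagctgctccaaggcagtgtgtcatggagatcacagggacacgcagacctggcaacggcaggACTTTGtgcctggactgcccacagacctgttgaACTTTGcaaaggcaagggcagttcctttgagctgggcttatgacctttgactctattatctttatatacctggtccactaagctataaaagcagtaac
Cyp2c29: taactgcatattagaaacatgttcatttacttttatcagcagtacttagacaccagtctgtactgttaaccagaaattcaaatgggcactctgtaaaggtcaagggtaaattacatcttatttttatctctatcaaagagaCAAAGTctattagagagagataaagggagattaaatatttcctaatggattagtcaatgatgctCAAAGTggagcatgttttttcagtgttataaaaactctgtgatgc
The Rbp2 window also holds GGAATG of the TEAD motif, left in lower case. That TEAD hexamer was in 4 of the 20 enterocyte list members with an entry. The HNF4 hexamer stood 131 and 98 bases before the start in Rbp2 and 109 and 45 in Cyp2c29. It was found on either strand in 12.7% of the promoters of the 10158 genes, in 12.4% of those of genes called lower and 12.7% of those of genes not called, and in 8 of the 20 enterocyte list members with an entry. The CDX letters TTTATGG or TTTATTG were in 4.89% of all and in 3 of these 20, and the AP-1 site TGANTCA was in 5.75% of all and in 0 of these 20.

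**Figure D4:**
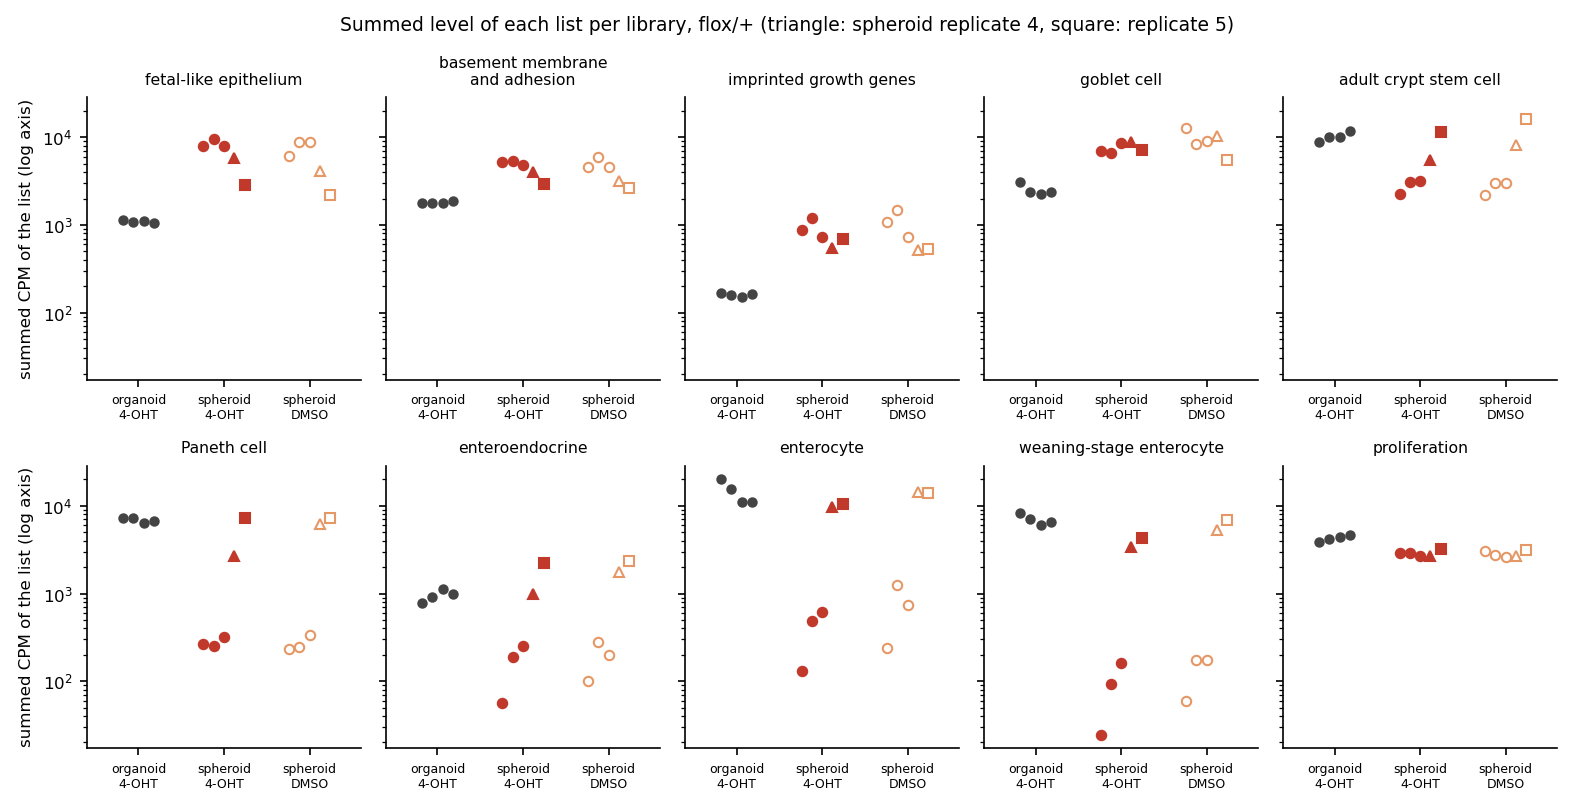
Summed CPM of 10 lists on a log axis, per flox/+ library: organoids with 4-OHT (dark), spheroids with 4-OHT (red) and the same spheroid lines with DMSO (open), with a triangle for replicate 4 and a square for replicate 5. The enterocyte sum is 10948 to 20361 CPM in organoids, 132 to 611 CPM in spheroid replicates 1 to 3 and 9811 and 10601 CPM in replicates 4 and 5.

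Goblet cell genes were mostly higher in the spheroids. Of 15 tested 9 were called, all higher (60.0%, against 25.1% of all tested genes). Without replicates 4 and 5, 8 were higher and 1 lower (53.3% and 6.67%, against 32.9% and 32.4% of all genes). The secreted protein gene Clca1 was 109, 79.7, 59.1 and 56.1 CPM in organoids and 1250.1, 923, 1256, 1041 and 582 CPM in spheroids, a 13.3-fold difference of means (log2 fold change 3.71 ± 0.30 SE, adjusted p = 4.55e-05), and Fcgbp, a mucus component, 1855, 1224, 1081 and 1273 CPM and 3246, 3732, 5082, 5677 and 4417 CPM (log2 fold change 1.68, adjusted p = 0.000258). The trefoil peptide gene Tff3 rose by 1.45 and the disulfide isomerase gene Agr2 by 1.72. All 5 spheroid libraries lay above all organoid libraries in these 4 genes, replicates 4 and 5 included. The summed goblet level was 6679 to 8836 CPM in spheroids and 2239 to 3117 CPM in organoids. The lower count was 1 without spheroid replicate 1 or 5.

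Among genes of the suckling period 5 of 7 tested were higher (71.4%, against 25.1% of all tested genes). The lysosomal protease gene Ctsl was 41.8, 41.6, 44.2 and 41.8 CPM in organoids and 243, 479, 426, 235 and 139 CPM in spheroids (log2 fold change 2.82, adjusted p = 0.000247), and the arginine synthesis gene Ass1 was 6.96, 8.67, 12.3 and 9.19 CPM and 85.3, 138, 129.5, 16.8 and 27.7 CPM (log2 fold change 3.08, adjusted p = 0.00437). Cubn, the scavenger receptor with which ileal enterocytes take up proteins, was 0.616, 0.282, 0.788 and 1.05 CPM in organoids and 1.01, 5.04, 2.67, 170 and 96.6 CPM in spheroids, so that most of its rise of 6.25 came with replicates 4 and 5. Its call was lost with no filter beyond 1 read (adjusted p = 0.0544) and with the replicate block (3.84, adjusted p = 0.117). Without replicates 4 and 5 it rose by 2.10 (adjusted p = 0.00775). Of the list, 1 gene was lower without spheroid replicate 1 or 5, and 2 were lower without replicates 4 and 5 together.

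Transcription factors of the intestine were split, 8 of 25 higher and 8 lower (32% each, against 25.1% and 22.8% of all tested genes). Cdx1 was 133, 127, 116 and 137 CPM in organoids and 6.53, 4.16, 6.38, 22.2 and 59.2 CPM in spheroids (log2 fold change -2.73, adjusted p = 0.015, and 0.0506 with no filter beyond 1 read), with replicates 4 and 5 highest among the spheroids and below all organoids. Cdx2 was not called, at 115, 110.2, 115 and 115 CPM and 113, 101, 94.6, 127 and 165 CPM (log2 fold change 0.05, adjusted p = 0.804). Hnf4a was 916, 856, 854 and 950.3 CPM and 482, 398, 455, 611 and 632 CPM (log2 fold change -0.82, adjusted p = 0.00114), while the epithelial factor gene Elf3 rose from 141, 137, 145 and 150.3 CPM to 406, 299, 325, 241 and 225 CPM (log2 fold change 1.04). The duodenal and pancreatic factor gene Pdx1 rose by 4.47, from 1.23, 0.563, 1.68 and 1.36 CPM to 34.5, 37.7, 35, 20 and 10.3 CPM, with Plut overlapping it on the other strand. The lower count was 4 without organoid replicate 1 and 5 without organoid replicate 2 or 4. It was 13 without spheroid replicates 4 and 5 (52%, against 32.4% of all genes).

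Some genes of hindgut and stomach were higher in the spheroids. Hoxa13, a factor gene of the hindgut, had 2 organoid reads in all and stood at 9.5, 15, 14.1, 28.9 and 6.39 CPM in spheroids. Its pooled reads over total counts stood in a ratio of 528 between the groups (exact 95% interval 146 to 4360.3, counting error only). The trefoil gene Tff2 of gastric mucous cells was 0.185, 0.0563, 0.21 and 0.194 CPM in organoids and 36.6, 20.7, 16, 15 and 64 CPM in spheroids (log2 fold change 7.46, adjusted p = 5.93e-05), and the gastric junction gene Vsig1 was 2.34, 1.97, 1.58 and 2.68 CPM and 199, 129, 172, 99 and 35.9 CPM (log2 fold change 5.86, adjusted p = 8.13e-05). Of 17 gastric and oesophageal genes 6 were tested and 3 were higher (50%, against 25.1% of all tested genes), while Sox2 had no reads in any of the 9 libraries. Of 39 HOX genes 6 were tested, 2 higher and 1 lower (33.3% and 16.7%, against 25.1% and 22.8%). Of 9 distal small intestine genes 2 were called, both higher (22.2%, near the 25.1% of all tested genes). Without replicates 4 and 5, 7 of 8 were lower (87.5%, against 32.4%). The distal count was 1 higher without organoid replicate 1 or 3 or spheroid replicate 2, 4 or 5, and without spheroid replicate 5 it had 2 lower. Of 9 proximal genes 2 were higher and 2 lower (22.2% each, near the 25.1% and 22.8% of all tested genes). Without replicates 4 and 5, 5 were lower (55.6%, against 32.4%). The proximal lower count was 0 without organoid replicate 1, 2 or 4 or spheroid replicate 2, and 1 without organoid replicate 3 or spheroid replicate 3 or 4.

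Innate defence genes were higher in 7 and lower in 4 of 19 (36.8% and 21.1%, against 25.1% and 22.8% of all tested genes). The receptor genes Tlr4, which senses lipopolysaccharide, and Tlr5, which senses flagellin, were 53.9, 57.8, 66.2, 52.8 and 23.5 CPM and 19.2, 14.6, 10.4, 12.9 and 12.7 CPM in spheroids against 1.42, 5.12, 0.998 and 1.24 CPM and 0.37, 0.676, 0.525 and 0.892 CPM in organoids (log2 fold changes 4.52 and 4.45, adjusted p = 0.000296 and 2.22e-05). Neither gene overlapped between the groups. Retinoid and xenobiotic metabolism genes were lower in 10 and higher in 6 of 29 (34.5% and 20.7%, against 22.8% and 25.1%). The retinaldehyde dehydrogenase gene Aldh1a1 was 629.6, 516, 255 and 296 CPM and 123, 109.9, 135, 191 and 166 CPM (log2 fold change -1.58, adjusted p = 0.00151), while the glutathione transferase gene Gsta4 rose from 171, 126, 99.7 and 95.3 CPM to 1284, 1136, 1141, 764 and 308 CPM (log2 fold change 2.89). The higher count was 3 without organoid replicate 4 or spheroid replicate 2 and 2 without spheroid replicate 3.

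Proliferation genes were lower in 20 of 27 and higher in 2 (74.1% lower against 22.8% of all tested genes), and lower in 20 and higher in 3 without replicates 4 and 5. The replication clamp gene Pcna was 352, 364, 389 and 401 CPM in organoids and 157, 199.9, 159.7, 173 and 198 CPM in spheroids (log2 fold change -1.11 ± 0.10 SE, adjusted p = 6.42e-05), low in all 5 lines. Top2a was 536, 608, 645 and 698 CPM and 199.8, 200.4, 196, 247 and 459 CPM (log2 fold change -1.28, adjusted p = 0.00245) with replicate 5 highest, and Mki67 was 417, 454, 448 and 494 CPM and 57, 37, 39.6, 115 and 359 CPM (log2 fold change -1.93, adjusted p = 0.0381). The call of Mki67 was lost without any of 8 of the 9 libraries, all but spheroid replicate 5 (adjusted p 0.0612 to 0.0742), with the S9612 lines summed (0.0943) and with no filter beyond 1 read (0.105). The 2 higher members were the cell cycle inhibitors Cdkn1a, 114, 88.7, 86.7 and 85.6 CPM in organoids and 759.6, 705, 626, 546 and 243 CPM in spheroids (log2 fold change 2.60, adjusted p = 0.00021), and Cdkn2a, 3.82, 1.91, 0.84 and 0.814 CPM and 22.7, 70.3, 59.8, 22.5 and 17.2 CPM (log2 fold change 4.38, adjusted p = 0.000926).

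Histone modifiers are named in the title of the study. In a list of histone and DNA modifiers, genes were lower in 11 and higher in 4 of 33 (33.3% and 12.1%, against 22.8% and 25.1% of all tested genes). Without replicates 4 and 5, 19 were lower (57.6%, against 32.4%). The Polycomb methyltransferase gene Ezh2 was 98.3, 118, 124 and 126 CPM in organoids and 72.3, 65.3, 56.7, 62.4 and 84.2 CPM in spheroids (log2 fold change -0.80, adjusted p = 0.000816). The maintenance DNA methyltransferase gene Dnmt1 was 249.6, 293, 286 and 307 CPM and 73.5, 97.6, 76.7, 123 and 242 CPM (log2 fold change -1.24, adjusted p = 0.0109, and -1.06 and 0.0563 with the S9612 lines summed), and its partner Uhrf1 was 169, 200.4, 209 and 236 CPM and 73.5, 81.7, 64.1, 84.6 and 151 CPM (log2 fold change -1.19, adjusted p = 0.00231). The Polycomb cofactor gene Jarid2 fell by 1.34 and the H3K4 methyltransferase gene Setd1a by 1.11, while the acetyltransferase gene Ep300 was not called at 0.13 (adjusted p = 0.603). These genes share their direction with the proliferation list, whose members include S-phase genes, and the part of cell division in their levels was not tested.

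The flox/flox cultures with 4-OHT gave the same contrast in libraries that the flox/+ contrast does not use. By name, flox/flox spheroid replicates 2, 4 and 5 (S9488-F, S9488-D and S9488-H) share a prefix with flox/+ replicate 1 and flox/flox replicate 6 (S9020-A) with flox/+ replicate 5, and what a prefix marks is not given. There 3396 of 13796 tested genes were called (24.6%), 2092 higher (15.2%) and 1304 lower (9.45%) in spheroids. The count was 2016 to 2215 without organoid replicate 1, 2 or 4, and 3188 without spheroid replicate 4, which had 13402 genes with a read against 17530 to 20000 in the other flox/flox spheroids. Of the 6949 genes called in flox/+, 6603 were tested, 2823 were called in the same direction and 11 in the opposite one. The 2823 are 42.8% of the 6603 genes and 83.1% of the flox/flox calls. The sign was the same for 95.2% of the 6603 genes. Fetal-like genes were higher in 16 of 16, matrix and adhesion genes in 17 of 22 with 1 lower, Hippo genes in 13 of 22 and Wnt genes in 12 of 23 with 1 lower. Stem cell genes were lower in 10 of 20 and higher in 2, enterocyte genes lower in 5 of 23, and goblet genes higher in 0 and lower in 1 of 15. The flox/flox spheroid lines were split as well. Their summed enterocyte level was 6035 and 14256 CPM in replicates 1 and 3 and 134 to 756 CPM in the others. Flox/flox organoids held 10509 to 17444 CPM. Ly6a rose by 4.94 (adjusted p = 0.00431), Lamb1 by 4.47 (0.000125), Peg3 by 6.14 (0.00614) and Ctgf by 3.46 (0.000661), and Pigr fell by 6.13 (0.00305).

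The stage difference itself differed between the genotypes for 8 of 15043 genes (0.0532%) in the interaction test, 3 with a higher and 5 with a lower value in flox/flox, and 1294 genes had an unadjusted p under 0.05. This count rested on single libraries. It was 0 without any of flox/flox organoid replicates 1 to 3 or flox/+ organoid replicates 2 to 4, 1 without flox/flox organoid replicate 4, 3 without flox/+ organoid replicate 1, and 4, 2 and 3 without flox/+ spheroid replicates 2, 3 and 4. It was 16 without flox/+ spheroid replicate 5, 19, 21 and 28 without flox/flox spheroid replicates 1, 3 and 6, and 69 without flox/+ spheroid replicates 4 and 5 together. Clca1 showed the largest of these differences, 3.71 in flox/+ and -1.02 (adjusted p = 0.269) in flox/flox, an interaction of -4.76 (adjusted p = 0.0301). The growth factor receptor gene Fgfr2, which binds fibroblast growth factors, was 51.3, 52.3, 59.2 and 65.6 CPM in organoids and 45.6, 102, 88, 103 and 99.6 CPM in spheroids of flox/+ cultures. In flox/flox it was 44.7 to 55.1 CPM in organoids and 3.36 to 16.8 CPM in spheroids, and the interaction was -3.10 (adjusted p = 0.0301). Its flox/+ rise of 0.59 (adjusted p = 0.0472) lost its call without any of 8 of the 9 libraries, all but spheroid replicate 1 (adjusted p 0.0546 to 0.117). It also lost it with no filter beyond 1 read, all 34 libraries, the replicate block, the S9612 lines summed, CreER-only organoids as reference or replicates 4 and 5 left out (0.058 to 0.162). The receptor Fgfr4 (interaction 1.35), the tubulin gene Tubb2b (2.03), the RNA-binding protein gene Zmat3 (-1.49), Mpp7 (-1.02), Chn2 (1.05) and the planar polarity gene Celsr1 (-2.02) made up the rest. With each of the 19 libraries left out in turn, these 8 genes kept their sign and passed in 7 to 13 of the 19 fits, Clca1 at -5.31 to -4.48 (7 fits, adjusted p 0.00747 to 0.146).

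**Figure D5:**
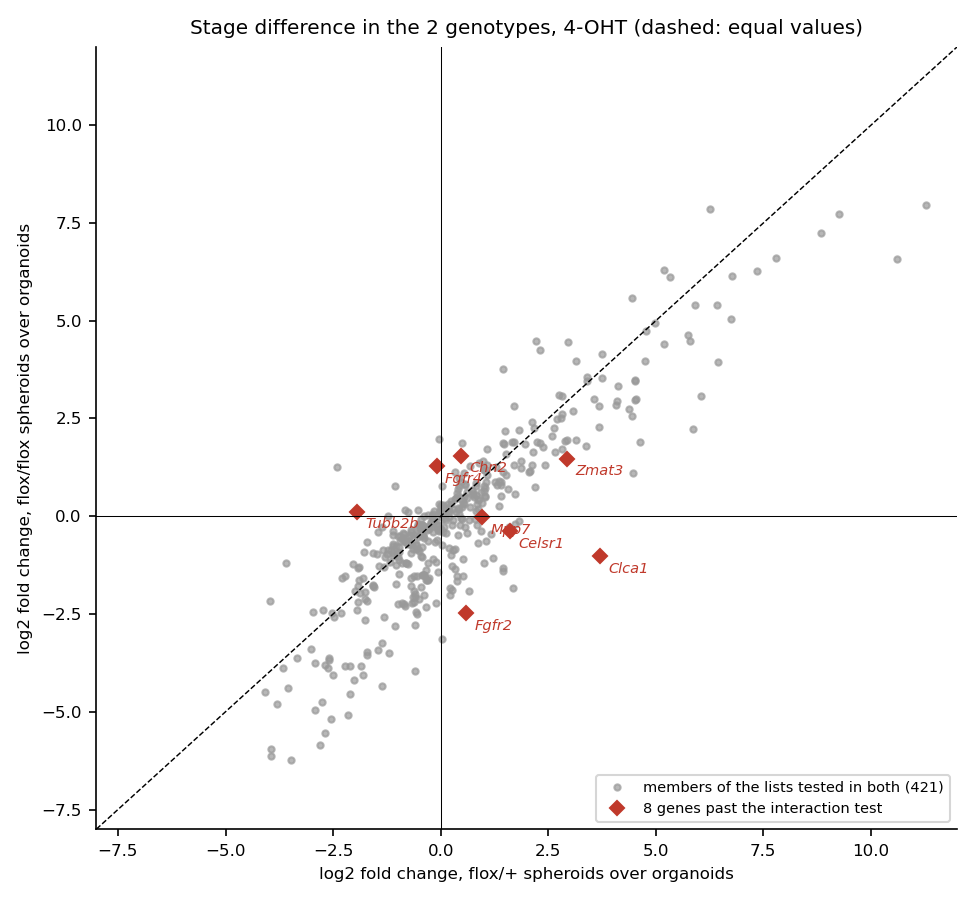
Log2 fold change of spheroids over organoids in flox/+ (horizontal) against flox/flox (vertical) for the 421 list members tested in both (grey) and the 8 genes past the interaction test (red). The sign is the same for 357 of the 421, and Clca1 and Fgfr2 lie furthest below the dashed line of equal values.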

How the data were processed

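Whole-number read counts per gene were deposited by the authors in 1 table of 34 libraries, with mouse gene identifiers and coordinates. Per the submitters' processing notes, reads were aligned with HISAT2 2.0.5 to GRCm38 (mm10). The counting program, its strand setting and the annotation release are not given in the sources used here. Per the labels' protocols the libraries were poly(A) selected and strand-marked.

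The 9 libraries were fitted alone in edgeR 4.0.16 (R 4.3.3) with filterByExpr, TMM and the robust quasi-likelihood F-test. P-values were adjusted by Benjamini-Hochberg over all tested genes, and the SE was derived from the F statistic. The same test was run on the 10 flox/flox libraries, and as a stage by genotype interaction on 19. Scripts were tested on simulated data. Levels are CPM with TMM over the 34 libraries, so they differ slightly in scale from the fitted fold changes. For genes with 0 organoid reads a floor of 3 reads over the group was used. Ratios of genes with up to 3 organoid reads were taken from pooled reads over total counts, without TMM factors. Intervals cover counting error only.

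The 27 gene lists (553 different genes) and 7 check lists, and the comparison itself, were chosen with earlier results of these data known. The naming rule took the 12 largest changes in each direction among called genes whose groups did not overlap and whose average log2 CPM reached 3. It left out symbols of predicted genes, RIKEN clones and pseudogenes (2101 higher and 1926 lower genes qualified). Further genes were taken from the lists as examples. Alternatives used DESeq2 1.42.0, limma 3.58.1, other filters, libraries left out and a replicate block. Promoters came from RefSeq on GRCm38.p6 for 10158 of 12683 tested protein-coding symbols (80.1%, 160 through a synonym). Motifs were searched on both strands.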

Additional observations from a re-analysis of the deposited data

Results flagged for a closer look

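In 253 distributions of named genes (5 spheroid or 4 organoid libraries each), 1 library lay far from the rest of its group by Dixon's criterion in 21 of them. Chance alone gives about 1 in 20. Among spheroids, replicate 5 was highest for Olfm4 (5077 CPM), Mki67 (359 CPM), Top2a (459 CPM), Uhrf1 (151 CPM), Defa21 (413 CPM), Epcam (1009 CPM) and Scn2b (16.5 CPM), and lowest for Upk1b (59.7 CPM). Replicate 2 was highest for the collagen genes Col1a1 (78.2 CPM), Col1a2 (37.2 CPM) and Col3a1 (49.6 CPM) and for H19 (103 CPM), and replicate 1 was lowest for Fgfr2 (45.6 CPM).

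Among organoids, replicate 1 was highest for Cdkn1a (114 CPM) and for Hoxa13 (0.123 CPM) and lowest for Hmga2 (35.7 CPM) and Lgr5 (259 CPM). Replicate 2 was highest for Tlr4 (5.12 CPM) and lowest for Cdx2 (110.2 CPM) and Tff2 (0.0563 CPM), and replicate 3 was highest for Ctsl (44.2 CPM).

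The stage difference differed between flox/flox and flox/+ in the interaction test for 8 genes, given as the flox/flox minus the flox/+ log2 fold change. It was -4.76 for Clca1, -3.10 for Fgfr2, -2.02 for Celsr1, -1.49 for Zmat3 and -1.02 for Mpp7. It was 2.03 for Tubb2b, 1.35 for Fgfr4 and 1.05 for Chn2. The number of genes past this test ranged from 0 to 28 with 1 library left out.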

How the results depend on the processing

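The count of 6949 called genes stayed within 1.5 times under every alternative run. It was 6052 with all 34 libraries in the fit, 9442 without spheroid replicates 4 and 5, and 5776 to 7895 with 1 library left out (higher 3157 to 4113, lower 2619 to 3782). The flox/flox count of 3396 was 2016 to 4967 with 1 library left out. The interaction count of 8 was 0 to 28 with 1 library left out, 5 with no filter beyond 1 read and 69 without flox/+ spheroid replicates 4 and 5. The cause was not tested. These runs on the flox/flox and interaction counts, and the setting without replicates 4 and 5, were chosen after the data were seen.

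With the replicate number as a block the interaction count was 22, the flox/+ count 7294 and the flox/flox count 3591. The numbers name different lines in each group, and same-numbered libraries did not deviate together (correlations -0.0696 to 0.0506 across genes, 4 numbers), so they do not pair the libraries. No organoid library is numbered above 4. The block therefore in effect leaves spheroid replicate 5 out of the flox/+ contrast, and replicates 5 and 6 out of the flox/flox contrast.

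No named gene reversed its direction. Of 108 called named genes, 19 lost the call in at least 1 setting and 8 of these with a single library left out. Eif4g2 had an adjusted p of 0.0503 with all 34 libraries in the fit. An alternative with a Y-linked covariate was not run. The summed level of 5 sex-linked check genes was 130 to 226 CPM in spheroids and 204 to 218 CPM in organoids. Of 4 tested, 1 was higher and 1 lower in spheroids (25% each, near the 25.1% and 22.8% of all tested genes).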
